A study of Homo sapiens with 2 samples.

Results

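SR proteins, hnRNP proteins and the splicing factors that work beside them were followed in BT549 cells that overexpress SNHG15. The genes were matched by symbol, from a list drawn up with earlier results of these data known. They were the numbered SRSF genes, all HNRNP genes, the SF3A and SF3B subunits, TRA2A and TRA2B, the PTBP genes, U2AF1 and U2AF2. Also included were the kinases CLK1 to CLK4, SRPK1 and SRPK2, then RBM25 and RBM39, and the regulators RBFOX2, ESRP, MBNL, CELF, QKI and NOVA. Among the 19029 genes listed, 96 matched, 30 of these were described as pseudogenes and were left out, and 66 genes remained. A mean CPM (count relative to the scaled library size) of at least 1 over both libraries was reached by 65 of the 66, and by 12934 of all genes. SRSF12, ESRP1, MBNL3 and CELF2 were not analysed here.

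BT549 is an established breast cancer line from a human tumour, with a mesenchymal rather than epithelial look. The SNHG15 group was BT549 cells labelled as overexpressing SNHG15, a host gene of a small nucleolar RNA whose spliced product is a long non-coding RNA, and the vector group was BT549 cells labelled as vector control. Both were grown in DMEM with serum and antibiotics. Each group was 1 library, and the labels do not say whether the cells were a clone or a pool, so the differences described have no replicate check and every interval covers counting error only.

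Sequencing depth was 16570496 counts over 18086 detected genes for SNHG15 cells, against 20799017 counts over 18144 genes for vector cells. SNHG15 itself had 34450 counts in SNHG15 cells and 466 in vector cells, a ratio of 85.6 (95% interval 78.1 to 94.0). VIM, the mesenchymal filament gene, was at 1998 CPM in SNHG15 cells and 1993 CPM in vector cells, and 8 of 8 mesenchymal markers were measured. Of these 8, SPARC rose and THY1, FN1, TWIST1 and ZEB1 fell. The summed level of the 5 epithelial markers with a row was 1.45 CPM in SNHG15 cells and 5.96 CPM in vector cells. Of these, ELF3 had 8 counts in SNHG15 cells and 65 in vector cells, and CLDN7 had 2 and 40. Both reached a mean of 1 CPM only through the vector library, so they had to differ. CDH1 had 12 counts in SNHG15 cells and 11 in vector cells, and CLDN4 had 3 and 1. OVOL1 had 0 counts in SNHG15 cells and 2 in vector cells. In such bulk RNA, fewer cells of a type and less RNA per cell cannot be told apart.

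SR proteins bind exonic enhancers through RNA recognition motifs and recruit the spliceosome with an arginine-serine tail, which SRPK and CLK kinases phosphorylate. The hnRNP proteins coat nascent transcripts, often oppose exon inclusion and also take part in the stability and transport of mRNA. Many SR and hnRNP genes control their own level through exons that send the transcript to nonsense-mediated decay, and changed levels of such factors are common in tumours.

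More of these genes stood slightly above the vector library than below it. Among those called lower by the rule given next, PTBP1 was the abundant one. Other abundant members, such as SF3B5, SF3B2 and SF3A1, also stood below the vector library without being called. A gene was called where its TMM-scaled ratio of SNHG15 to vector was at least 1.5-fold either way and its 95% interval excluded 1. By this rule 13 of 65 members rose (20.0%), 2 fell (3.08%) and 50 did neither. Among all genes compared 13.3% rose and 12.2% fell. Of the 13, SRSF8 and NOVA1 were under 1 CPM in vector cells and entered only through the SNHG15 library, so they had to differ, and HNRNPU-AS1 and HNRNPUL2-BSCL2 are a non-coding and a readthrough model rather than splicing factors. Without these 4, 9 of 61 members rose (14.8%), which lies near the share of all genes, and 2 fell (3.28%).

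The median log2 ratio was 0.23 over the members and 0.02 over all genes compared, and 51 of 65 members (78.5%) stood above 0, against 51.1% of all genes. The lower and upper quartiles of the log2 ratio were 0.03 and 0.51 for the members, and -0.33 and 0.36 for all genes. The whole counting interval lay above 1 for 41 members (63.1%) and below 1 for 8 (12.3%), against 30.7% and 31.3% of all genes. Members had a median mean level of 55.7 CPM, against 16.3 CPM for all genes, so their intervals were narrower. In the authors' deposited table, 4.88% of all genes were called up and 3.27% down. Of the members, that table called up SRSF8, NOVA1, HNRNPU-AS1 and HNRNPUL2-BSCL2, and called down HNRNPA1L2. The authors' calls follow a rule and a scaling that differ from those used here. Members called here, such as PTBP1, HNRNPA1, HNRNPF and SRSF1, had no call there, which does not show that they were unchanged.

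**Figure D1:**
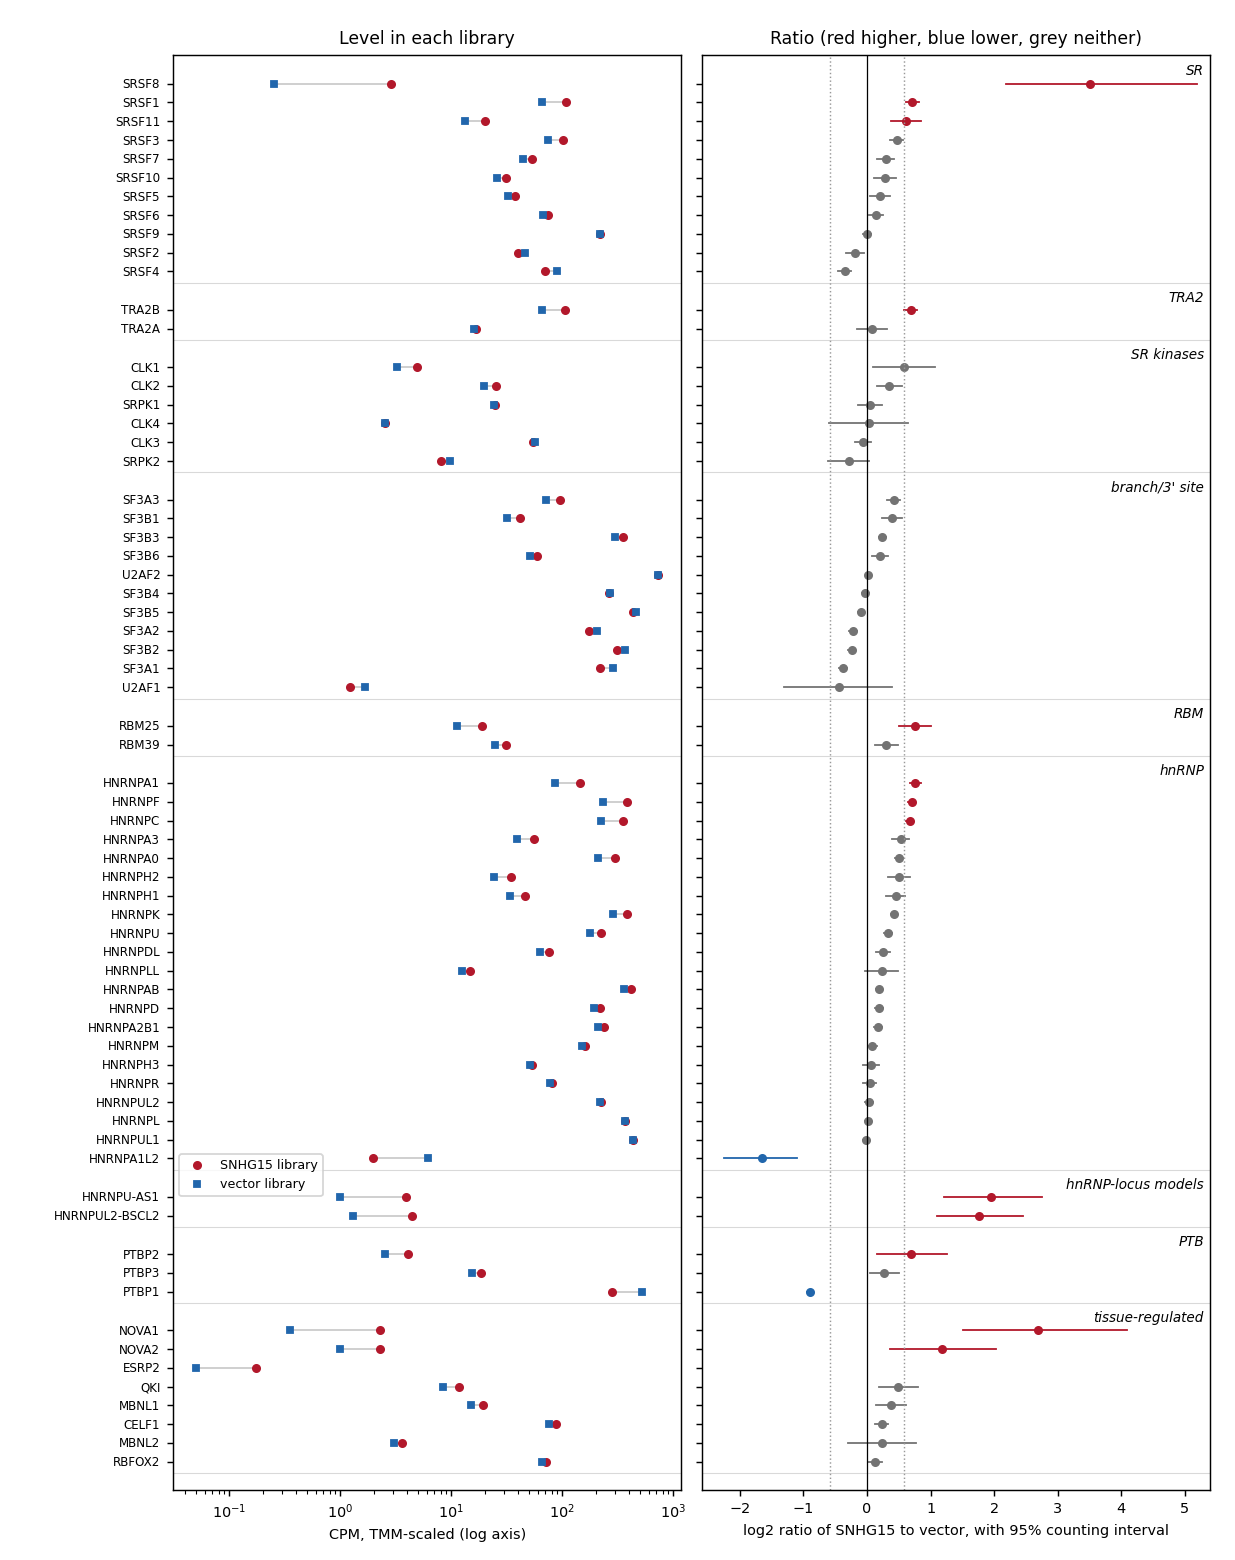
Level in CPM (log axis, left) and log2 ratio of SNHG15 to vector with its 95% counting interval (right) for the 66 members by role, 1 library per group. Most points of the right panel lie between 0 and the dotted 1.5-fold line, PTBP1 and HNRNPA1L2 lie to the left of the lower line, and ESRP2 has no ratio drawn because it was under 1 CPM.

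**Figure D2:**
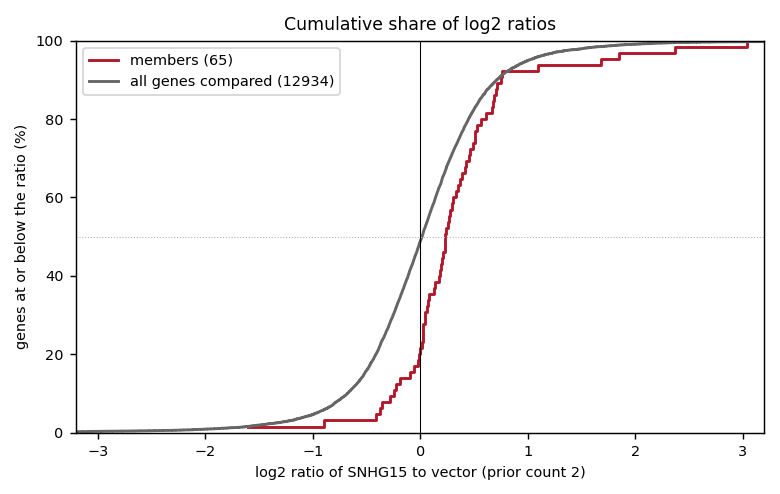
Cumulative share of genes (%) by log2 ratio of SNHG15 to vector for the members and for all genes compared; ratios outside the axis are not drawn. The curve of the 65 members crosses its middle at 0.23, to the right of the 12934 genes at 0.02.

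Of the SR proteins 3 of 11 rose and none fell by the fold rule, against 13.3% and 12.2% of all genes. SRSF8 is among the 3 and had to differ, since it passed the filter only through the SNHG15 library; without it 2 of 10 rose. The median log2 ratio of the 11 was 0.28, and 0.11 with the trend on transcript GC content over all genes removed. SRSF1, the founding member and a proto-oncogene in breast epithelium, had 1876 counts (108.7 CPM) in SNHG15 cells and 1324 counts (66.3 CPM) in vector cells. Its ratio was 1.64 (1.53 to 1.76). Its locus on chromosome 17 overlaps a further gene of the same strand, so reads may be divided between them. SRSF11, an SR-related factor of the same family, had 350 counts in SNHG15 cells and 265 in vector cells, a ratio of 1.53 (1.30 to 1.80) that just passed the threshold.

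SRSF8, an intronless relative of SRSF2, had 49 counts in SNHG15 cells and 5 in vector cells. The ratio of 11.4 had a wide interval, 4.55 to 36.5, and the level stayed low, 0.734 FPKM in SNHG15 cells and 0.0597 FPKM in vector cells. Over the 846 coding bases of SRSF8 the best match to an SRSF2 transcript held 71.6% identical bases with no identical run over 34 bases. SRSF2 itself had 693 counts in SNHG15 cells and 917 in vector cells, a ratio of 0.875 (0.792 to 0.967).

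The other SR proteins did not pass the fold rule. SRSF3 had the largest ratio among them, 1.38 (1.29 to 1.48), with 1766 counts in SNHG15 cells and 1480 in vector cells. SRSF7, SRSF10, SRSF5 and SRSF6 had ratios between 1.098 and 1.22. SRSF9, the most abundant SR gene, had 217.6 CPM in SNHG15 cells and 217.8 CPM in vector cells. SRSF4, a long SR protein with repeated arginine-serine dipeptides, had the lowest ratio of the group, 0.782 (0.727 to 0.842), with 1215 counts in SNHG15 cells and 1798 in vector cells.

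Of the SR-like activators TRA2A and TRA2B, which bind GAA-rich enhancers, TRA2B rose. TRA2B had 1828 counts (105.9 CPM) in SNHG15 cells and 1315 counts (65.8 CPM) in vector cells, a ratio of 1.61 (1.498 to 1.73). TRA2A had 289 counts in SNHG15 cells and 318 in vector cells, and its ratio of 1.05 had an interval that included 1 (0.894 to 1.24). The difference between the paralogs was not tested.

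None of the 6 kinases that phosphorylate SR proteins was called, while 13.3% of all genes rose and 12.2% fell. The median log2 ratio of the 6 kinases was 0.04, and -0.01 with the GC trend removed. CLK1, a nuclear kinase, had 84 counts in SNHG15 cells and 65 in vector cells, and its ratio of 1.496 lay just under the fold (1.07 to 2.10). CLK2 had a ratio of 1.28 (1.11 to 1.47). The intervals of CLK3, the most abundant kinase with 54.3 CPM in SNHG15 cells and 56.7 CPM in vector cells, and of CLK4, SRPK1 and SRPK2 all included 1.

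None of the 11 branch site and 3′ splice site factors was called either, while 13.3% of all genes rose and 12.2% fell. Of the 11 ratios 5 were above 0 on the log2 scale, with a median of -0.03. This GC-rich group (median GC content 53.6%) had a median of 0.09 with the GC trend removed, so its direction turned. This group had the highest levels per transcript length. SF3B5, a small subunit of the U2 snRNP, was first of the members at 653 FPKM in SNHG15 cells and 642 FPKM in vector cells. U2AF2, which binds the polypyrimidine tract, followed with 125.7 FPKM in SNHG15 cells and 114.3 FPKM in vector cells, and SF3B4 was the third in both libraries. U2AF2 had 12646 counts in SNHG15 cells and 14429 in vector cells, a ratio of 1.01 (0.991 to 1.04).

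Within SF3A and SF3B the subunits were spread on either side of 1. SF3A3 stood at 1.34 (1.25 to 1.44) and SF3B1, the subunit that contacts the branch site and is mutated in several cancers, at 1.31 (1.17 to 1.46). SF3A1 stood at 0.770 (0.739 to 0.803), SF3B2 at 0.845 (0.816 to 0.875) and SF3A2 at 0.857 (0.818 to 0.899). These intervals do not overlap across the sides, yet no subunit reached 1.5-fold. SF3B3 stood at 1.18, SF3B6 at 1.16, SF3B4 at 0.982 and SF3B5 at 0.938. With the GC trend removed the log2 ratio of SF3A2 turned to 0.13 in place of -0.22, those of SF3B4 and SF3B5 turned to 0.08 and 0.09, and that of SF3B2 shrank to -0.11 in place of -0.24.

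U2AF1, the partner of U2AF2, was listed at 21 counts in SNHG15 cells and 33 in vector cells, a ratio of 0.737 (0.405 to 1.31). In GENCODE 29 its 720 coding bases are identical to those of U2AF1L5, an annotated copy on chromosome 21 that was not analysed here. A read from the coding sequence therefore matches each locus equally well, and the U2AF1 value is uncertain.

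Both RBM factors stood above 1. RBM25, an SR-like partner of the U1 snRNP, rose, with 325 counts in SNHG15 cells and 223 in vector cells, a ratio of 1.69 (1.42 to 2.01). RBM39, a U2AF-related coactivator, had 531 counts in SNHG15 cells and 498 in vector cells, a ratio of 1.23 (1.09 to 1.40) that was not called.

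Among the hnRNP proteins 3 of 21 rose (14.3%, near the 13.3% of all genes) and 1 fell (4.76%, against 12.2%). A log2 ratio above 0 was found for 19 of 21, with a median of 0.23, and 0.16 with the GC trend removed. Summed over the 21, the level was 4191 CPM in SNHG15 cells and 3451 CPM in vector cells. HNRNPF, which binds G-rich tracts, had 6574 counts (381.0 CPM) in SNHG15 cells and 4676 counts (234.1 CPM) in vector cells, a ratio of 1.63 (1.57 to 1.69). HNRNPC, which binds uridine tracts and guards against inclusion of Alu-derived exons, had 6083 counts (352.6 CPM) in SNHG15 cells and 4429 counts (221.7 CPM) in vector cells, a ratio of 1.59 (1.53 to 1.65). In FPKM, HNRNPF held rank 4 of the members in SNHG15 cells and rank 7 in vector cells.

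HNRNPA1, the best studied antagonist of SRSF1 in exon choice, had 2511 counts (145.5 CPM) in SNHG15 cells and 1719 counts (86.1 CPM) in vector cells, a ratio of 1.69 (1.59 to 1.80). The gene has many processed copies, and most counts of the family were listed under them. HNRNPA1P7 had 5344 counts in SNHG15 cells and 3799 in vector cells, and HNRNPA1P48 had 4550 counts in SNHG15 cells and 2933 in vector cells. The HNRNPA1 row held 19.3% of the counts of itself and its 12 pseudogene rows in SNHG15 cells and 19.6% in vector cells.

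In GENCODE 29 transcripts HNRNPA1P7 differed from the coding sequence of a HNRNPA1 isoform at 9 of 960 bases (99.1% identity), HNRNPA1P48 at 6, HNRNPA1P10 at 5 and HNRNPA1L2 at 15. The longest run shared with HNRNPA1 without a difference was 652 bases in HNRNPA1P7, 373 in HNRNPA1P48, 301 in HNRNPA1P10 and 174 in HNRNPA1L2. Reads within such runs match more than 1 row, and the assignment the authors used was not stated in these sources.

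A pooled count does not depend on how reads were divided among the pooled rows. It does depend on whether shared reads were dropped or counted more than once, which is not known here. HNRNPA1 pooled with its 12 pseudogene rows had 12991 counts in SNHG15 cells and 8775 in vector cells. The ratio of this pool was 1.71 (1.67 to 1.76), close to the 1.69 of the HNRNPA1 row. With HNRNPA1L2 added, the pool had 13025 counts in SNHG15 cells and 8899 in vector cells, a ratio of 1.69 (1.65 to 1.74). The ratio was 1.63 for HNRNPA1P7, 1.80 for HNRNPA1P48 and 2.19 for HNRNPA1P10. HNRNPA1L2, an intronless gene for an A1-like protein, went the other way and fell, with 34 counts in SNHG15 cells and 124 in vector cells, a ratio of 0.317 (0.211 to 0.467). It was a small share of the family and overlaps a further gene of the same strand.

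**Figure D3:**
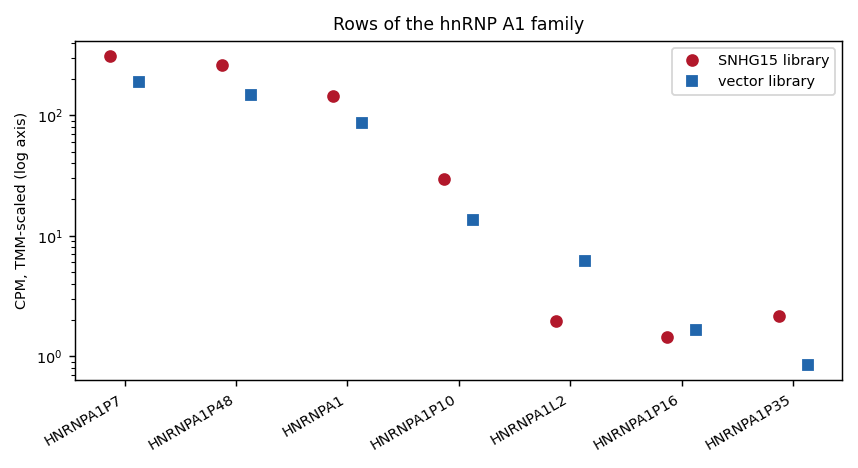
Level in CPM (log axis) of HNRNPA1 and of the family rows with at least 30 counts in all, in SNHG15 cells and in vector cells, 1 library each. HNRNPA1P7 and HNRNPA1P48 lie above HNRNPA1 in each library, and HNRNPA1L2 and HNRNPA1P16 are the rows with the SNHG15 point below the vector point.

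Other hnRNP genes with copies stayed on the same side of the threshold when pooled. HNRNPC with its pseudogene rows stood at 1.55 (1.498 to 1.61), with 89.2% of the pooled counts in its own row in SNHG15 cells and 87.2% in vector cells. HNRNPA3, an A/B-type relative of A1, held 38.9% of its pooled counts in SNHG15 cells and 36.5% in vector cells, and stood at 1.44 alone and 1.35 pooled. HNRNPK, which binds C-rich RNA, stood at 1.34 alone and 1.35 pooled, below the fold.

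The hnRNP genes that were not called covered a graded range. HNRNPA0, HNRNPH2, HNRNPA3, HNRNPH1 and HNRNPK had ratios from 1.34 to 1.44, each with an interval above 1. HNRNPU, a nuclear scaffold protein, stood at 1.26 (1.202 to 1.32), with 3881 counts in SNHG15 cells and 3570 in vector cells. HNRNPDL, HNRNPLL, HNRNPAB, HNRNPD and HNRNPA2B1 had ratios from 1.13 to 1.19, and the interval of HNRNPLL included 1. HNRNPM, HNRNPH3, HNRNPR, HNRNPUL2, HNRNPL and HNRNPUL1 lay between 0.992 and 1.06. HNRNPUL1, the most abundant hnRNP gene by CPM, had 429.5 CPM in SNHG15 cells and 433.0 CPM in vector cells.

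The paralogs HNRNPF, HNRNPH1, HNRNPH2 and HNRNPH3, which share G-tract binding, thus ran from 1.63 for HNRNPF to 1.05 for HNRNPH3 (0.956 to 1.14). HNRNPH2 overlaps the readthrough gene RPL36A-HNRNPH2 on the same strand and HNRNPL overlaps a further gene, so their values are uncertain in the same way.

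Both transcript models at hnRNP loci rose. HNRNPU-AS1, a non-coding gene listed on the minus strand of chromosome 1 beside HNRNPU, had 67 counts in SNHG15 cells and 20 in vector cells, a ratio of 3.88 (2.32 to 6.75). It overlaps RP11-11N7.5 on the same strand, a gene that HNRNPU overlaps too, so reads may be divided between them. It also overlaps COX20 on the opposite strand, and it is not stated whether the libraries kept strand. HNRNPUL2-BSCL2, a readthrough model on chromosome 11, had 76 counts in SNHG15 cells and 26 in vector cells, a ratio of 3.38 (2.14 to 5.51). The genes it joins did not move that way: HNRNPUL2 stood at 1.02 (0.974 to 1.06) and BSCL2 at 0.701 (0.664 to 0.741), below 1 without reaching the fold.

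Of the polypyrimidine tract binding proteins, PTBP1 was called lower and PTBP2 was called higher on few counts. PTBP1, which represses many tissue-specific exons, fell, with 4848 counts (281.0 CPM) in SNHG15 cells and 10464 counts (523.9 CPM) in vector cells. The ratio was 0.536 (0.518 to 0.555), a level 1.86-fold lower in SNHG15 cells. PTBP2, the neural paralog, rose at a low level, with 70 counts (4.06 CPM) in SNHG15 cells and 50 counts (2.50 CPM) in vector cells. The PTBP2 ratio was 1.62 (1.11 to 2.38). This call was lost with the GC trend removed, in FPKM with a pseudocount of 1 or 0.1, and where the whole interval had to lie past 1.5-fold. The GC content was 59.5% for PTBP1 and 37.0% for PTBP2. PTBP3 had 319 counts in SNHG15 cells and 306 in vector cells, a ratio of 1.21 (1.03 to 1.42) that was not called.

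As background, PTBP1 protein promotes skipping of an exon of PTBP2 and of its own transcripts, which sends those transcripts to nonsense-mediated decay. Gene-level counts do not show exon use, so splicing was not measured here.

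The promoters of PTBP1 and PTBP2 around the annotated start are printed 5′ to 3′ on the gene's strand (RefSeq, GRCh38.p14). The GC box (GGGCGG) and CCAAT box (CCAAT) on either strand are in capitals. PTBP1 is 1 of 2 listed starts, at chr19:797202-797501 on the plus strand, and PTBP2 lies at chr1:96722388-96722687 on the plus strand.
PTBP1: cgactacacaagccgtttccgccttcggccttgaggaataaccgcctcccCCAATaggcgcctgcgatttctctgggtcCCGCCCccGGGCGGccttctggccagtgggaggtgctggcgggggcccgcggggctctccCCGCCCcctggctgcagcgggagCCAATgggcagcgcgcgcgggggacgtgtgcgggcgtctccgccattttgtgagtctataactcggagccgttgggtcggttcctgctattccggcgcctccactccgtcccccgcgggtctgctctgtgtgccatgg
PTBP2: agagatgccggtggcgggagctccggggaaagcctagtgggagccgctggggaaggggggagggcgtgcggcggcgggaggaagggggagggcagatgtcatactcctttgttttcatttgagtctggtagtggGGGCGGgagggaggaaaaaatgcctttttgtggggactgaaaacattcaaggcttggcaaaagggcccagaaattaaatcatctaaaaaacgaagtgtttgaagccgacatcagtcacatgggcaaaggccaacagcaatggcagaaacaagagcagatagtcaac

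The PTBP1 promoter shown held 3 GC boxes and 2 CCAAT boxes in a sequence of 69.3% GC, and the PTBP2 promoter held 1 GC box in a sequence of 54.0% GC. The other listed PTBP1 start, at chr19:797734-798033, held 2 GC boxes and 0 CCAAT boxes in a sequence of 82.7% GC. Promoters were listed for 57 of the 66 members, 87 in number. The median GC content of these 87 was 64%, against 58.7% for all promoters. Their median number of CG dinucleotides (C followed by G) was 29, against 14. The motif shares that follow were not adjusted for this composition. A GC box was present in 62.1% of these 87 and in 44.95% of all 35116 promoters, and a CCAAT box in 37.9% of these and 34.6% of all. An ETS site (CCGGAAG) was present in 17.2% of the members' promoters and 10.3% of all, an E-box (CACGTG) in 14.9% of the members' and 7.26% of all, and a TATA box (TATAAA) in 9.20% of the members' and 11.5% of all. Both strands were searched, no motif contains another, and these matches describe letters and not binding.

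Among the tissue-regulated factors 2 of 7 measured members rose, against 13.3% of all genes. NOVA1 is among the 2 and had to differ for the reason given for SRSF8; without it 1 of 6 rose. All 7 had a log2 ratio above 0, with a median of 0.37, and 0.19 with the GC trend removed. NOVA1, best known as a neuronal splicing factor, had 39 counts in SNHG15 cells and 7 in vector cells, a ratio of 6.45 (2.85 to 17.1). NOVA2, its paralog, had 39 counts in SNHG15 cells and 20 in vector cells, a ratio of 2.26 (1.29 to 4.09). Both levels were low, at 0.124 FPKM for NOVA1 and 0.268 FPKM for NOVA2 in SNHG15 cells, against 0.0177 and 0.110 FPKM for the same genes in vector cells.

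Of the fixed neural markers only SNAP25 was measured, with 26 counts in SNHG15 cells and 74 in vector cells. MAP2 had 9 counts in SNHG15 cells and 10 in vector cells, and GAP43 had 2 counts in SNHG15 cells and 0 in vector cells. SNAP25 fell by the same rule. NOVA1 had to differ, as given above, and the call of PTBP2 was lost with the GC trend removed, so neither is set against SNAP25.

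Apart from NOVA1 and NOVA2, the measured tissue-regulated factors were not called. QKI, whose splicing program accompanies the mesenchymal state, had 204 counts in SNHG15 cells and 168 in vector cells, a ratio of 1.41 (1.14 to 1.74). MBNL1, MBNL2, CELF1 and RBFOX2 had ratios between 1.09 and 1.30. CELF1 was the most abundant of the group, at 88.3 CPM in SNHG15 cells and 75.2 CPM in vector cells. ESRP2, an epithelial splicing factor, had 3 counts in SNHG15 cells and 1 in vector cells, too few for a ratio.

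The ratio of a gene moved with the GC content of its transcripts, across the members as across all genes. The members' median GC content was 44.2%, against 49.9% for all genes compared. Across 64 members Pearson's r of log2 ratio with GC was -0.23 and Spearman's rho -0.42, and across 12895 genes they were -0.25 and -0.33. All of these points come from the same pair of libraries. In the 21 members of lowest GC (37.0 to 41.7%) the median log2 ratio was 0.37 and all 21 stood above 0. In the 21 of highest GC (47.2 to 63.6%) the median was 0.02 and 12 stood above 0.

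After the trend over all genes was removed, the members' median log2 ratio was 0.15, against 0.05 for all genes, and 50 of 65 stood above 0 (76.9%), against 54.8% of all genes. The calls of HNRNPC, PTBP2, SRSF11 and TRA2B were then lost, and 9 of 65 members rose (13.8%), about the share of all genes under this setting (13.2%). Of all genes 9.41% fell, against 2 members (3.08%). PTBP1, with a GC content of 59.5%, still fell, by 0.64 on the log2 scale in place of 0.90. HNRNPU-AS1 had no GC value and was left as it was. With the trend removed 6 uncalled members turned to a log2 ratio below 0, namely SRSF6, TRA2A, HNRNPH3, SRPK1, HNRNPR and CLK4, and 5 turned to one above 0, namely SF3A2, SF3B4, SF3B5, CLK3 and HNRNPUL1. The part of GC content in the ratios was not tested further.

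Where, in addition, each ratio was centred on the median of its chromosome, a step added after the data were seen, 5 members rose (7.69%) and 3 fell (4.62%), against 10.6% and 10.1% of all genes. HNRNPA1, HNRNPF, SRSF1 and RBM25 then also lost their calls and SRSF4 was called lower, while PTBP1, HNRNPA1L2, SRSF8, NOVA1, NOVA2, HNRNPU-AS1 and HNRNPUL2-BSCL2 kept theirs. The median log2 ratio of the genes of chromosome 14, which holds HNRNPC, RBM25 and NOVA1, was 0.30 before this step. Of the members, 47 of 65 (72.3%) still stood above 0, against 49.9% of all genes.

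**Figure D4:**
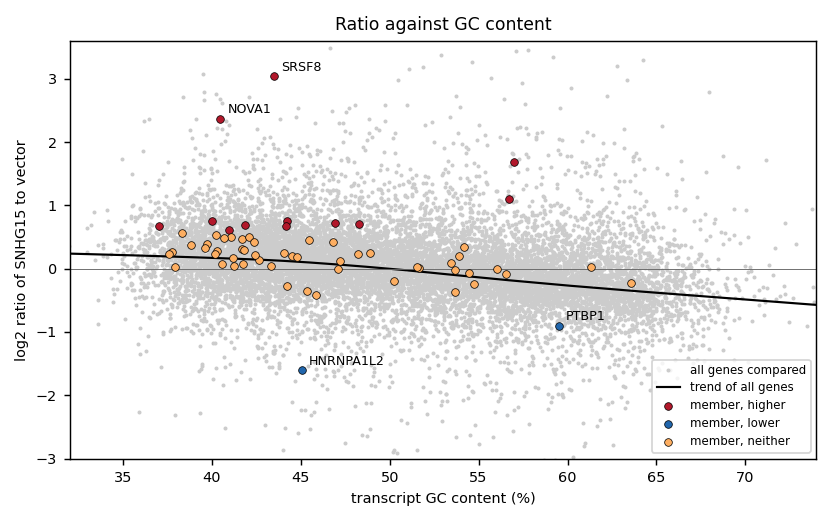
Log2 ratio of SNHG15 to vector against transcript GC content (%) for all genes compared (grey), with their trend (line) and the 64 members with a GC value; genes outside the axes are not drawn. The line falls as GC rises, PTBP1 lies below it at high GC, and SRSF8 and NOVA1 lie far above it.

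The lists of core spliceosome proteins had medians near 0. None of the 13 U1, U2 and Sm snRNP proteins was called, while 13.3% of all genes rose and 12.2% fell. The median log2 ratio of the 13 was -0.06. Of 22 tri-snRNP and LSm proteins none rose and 2 fell (9.09%), against 13.3% and 12.2% of all genes. Their median log2 ratio was -0.01. Those that fell were SNU13, a U4 snRNP and box C/D snoRNP protein, with 1774 counts in SNHG15 cells and 3704 in vector cells (ratio 0.554), and LSM4, with 3441 counts in SNHG15 cells and 6968 in vector cells (ratio 0.572).

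Among the 24 proteins of the PRP19 complex and the catalytic steps 6 rose and none fell, against 13.3% and 12.2% of all genes. Their median log2 ratio was 0.28, and 0.11 with the GC trend removed. PRPF38B had 220 counts in SNHG15 cells and 96 in vector cells (ratio 2.65). PRPF39, a U1 snRNP associated factor, had 72 counts in SNHG15 cells and 32 in vector cells (ratio 2.60). ISY1 had a ratio of 2.07 and overlaps the readthrough gene ISY1-RAB43, whose own log2 ratio was -7.10. Reads may have been divided differently between these rows in each library, which was not tested. The ISY1 value is therefore uncertain. Of 12 spliceosomal helicases 1 rose (8.33%, against 13.3% of all genes), DDX5 with a ratio of 1.54, and none fell (against 12.2%).

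Of 33 SR-related proteins 6 rose (18.2%, against 13.3% of all genes) and 1 fell (3.03%, against 12.2%), with a median of 0.10. SREK1, a regulatory SR-like protein, had 151 counts in SNHG15 cells and 66 in vector cells (ratio 2.65), and RSRC2 had a ratio of 1.71. SRRM2, the large scaffold of nuclear speckles, fell, with 5202 counts in SNHG15 cells and 10441 in vector cells (ratio 0.577). Of 7 further kinases and importers of SR proteins 1 fell (14.3%, against 12.2% of all genes). This was DYRK1A, with 64 counts in SNHG15 cells and 236 in vector cells (ratio 0.314).

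In the exon junction complex and export list 2 of 15 rose (13.3%, the share of all genes), THOC2 with a ratio of 2.02 and UPF3B with 1.86. In the nonsense-mediated decay list 1 of 8 fell (12.5%, against 12.2% of all genes). This was SMG8, with 80 counts in SNHG15 cells and 291 in vector cells (ratio 0.318), and it overlaps a further gene of the same strand. Among 38 rows of other splicing regulators 3 rose (7.89%, against 13.3% of all genes) and 1 fell (2.63%, against 12.2%). Their median log2 ratio was 0.18. NONO, a paraspeckle protein, had 8323 counts in SNHG15 cells and 4794 in vector cells (ratio 2.01), and FUBP1 had a ratio of 1.73. MATR3 is listed in 2 overlapping rows, 1 of which rose, with 78 counts in SNHG15 cells and 29 in vector cells, while the other had 312 counts in SNHG15 cells and 324 in vector cells.

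The order of the lists by median log2 ratio changed with the GC trend removed. It was then 0.11 for the PRP19 list, 0.15 for the members, 0.19 for the helicases and 0.21 for the other splicing regulators.

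**Figure D5:**
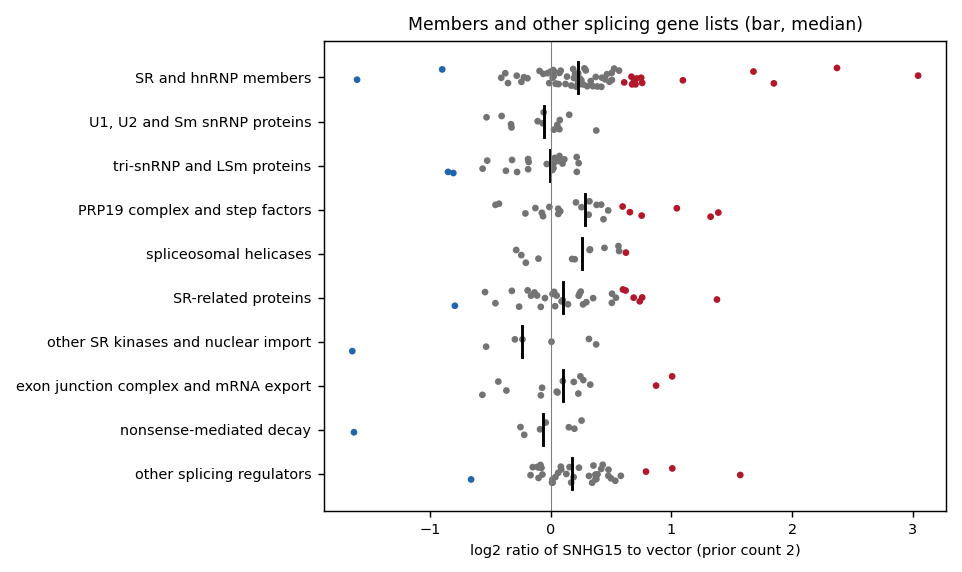
Log2 ratio of SNHG15 to vector of each measured gene of the SR and hnRNP members and of 9 other splicing gene lists; points are genes (red higher, blue lower, grey neither) and bars are medians. Before removal of the GC trend the medians run from -0.23 for the other SR kinases and importers to 0.28 for the PRP19 complex and step factors, with the members at 0.23.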

How the data were processed

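RNA of 2 BT549 cultures was sequenced, 1 library per group, and the groups were taken from the genotype in the labels. The genome build was hg38 according to the submitters' processing notes, and the sources used here name no aligner, counter or strand setting. The authors' deposited table holds whole-number counts per gene, FPKM values, a log2 ratio and edgeR p-values and q-values per the file headers. The deposited p-values rest on 1 library per group and were not used, and of the authors' values only the calls and the FPKM were.

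TMM factors (1.04 for the SNHG15 library, 0.960 for the vector library) came from edgeR 4.0.16 in R 4.3.3. Ratios had exact conditional-binomial (Clopper-Pearson) 95% intervals (scipy 1.17.1, Python 3.11.15), and log2 ratios used a prior count of 2. Reads are not independent molecules, so intervals cover counting error only. No p-value was computed. Biotype, GC content and coding sequence came from GENCODE 29, and GC trends were removed by lowess (statsmodels 0.14.6, span of 0.5). Opposite-strand overlaps, held by 20 members, and same-strand overlaps, held by 9, make values uncertain.

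Every member is named, with full values for called members and for the most abundant of each role group. Of each related list up to 3 called genes with the largest log2 ratio were named. The members and lists were chosen with earlier results of these data known. Functions were tested on simulated data. Settings tried instead were size factors of DESeq2 1.42.0, unscaled library totals, other filters, thinning, GC and length trends, FPKM with pseudocounts of 1 and 0.1, other folds and prior counts. Pooling of pseudogenes and chromosome centring were added after the data were seen. Sequence of the HNRNPA1 family is not reported here.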

Additional observations from a re-analysis of the deposited data

How the results depend on the processing

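With a minimum of 5 CPM 7 of 54 members rose and 1 fell, against 10.6% and 11.35% of all genes. With a fold of 2, 5 rose and 1 fell, against 5.44% and 4.88%. The number that rose was 8 where the whole interval had to lie past 1.5-fold (5.89% of all genes), and 5 with the GC trend and chromosome medians removed, an alternative added after the data were seen, where 3 fell (10.6% of all genes rose and 10.1% fell). Without genes that overlap another on the same strand 1 of 56 members fell, against 11.7% of all genes. Under the other settings 9 to 18 members rose and 2 fell, while 5.92% to 18.4% of all genes rose and 4.58% to 13.5% fell. With an FPKM pseudocount of 1, 9 members rose (13.85%), against 5.92% of all genes. With the GC trend removed 9 also rose, against 13.2% of all genes. The median log2 ratio of the members lay between 0.13 and 0.35 over all settings that changed it. Scaling by library totals gave 18 members that rose, with 18.4% of all genes higher and 8.90% lower, and moved the median of all genes to 0.13. DESeq2 size factors lost the call of SRSF11. FPKM with a pseudocount of 1 lost the calls of NOVA1, NOVA2, PTBP2, RBM25 and SRSF11. No called member changed sign under the scaling, GC, chromosome or pooling alternatives. The cause of these shifts was not tested beyond the settings' own construction. Genes with few counts, such as SRSF8, NOVA1 and PTBP2, are limited by depth. No paired analysis was possible because each group held 1 library.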
